A study of Mus musculus with 9 samples.

Results

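The genes described here are the Wnt ligands, the Frizzled receptors and their co-receptors, and the proteins that hold the pathway back. They were chosen by symbol: genes starting with Wnt, Fzd, Sfrp, Dkk or Rspo followed by a digit, and Lgr4, Lgr5, Lgr6, Lrp5, Lrp6, Frzb, Wif1, Axin2, Ror1, Ror2, Rnf43 and Znrf3. The rule took 53 of the 36410 genes in the count table. Of these, 39 passed edgeR's filter on low counts, against 13508 genes in all. The 53 genes are 19 ligands, 10 Frizzled receptors, 4 co-receptors, 4 R-spondins, 3 R-spondin receptors, 2 ubiquitin ligases, 10 secreted inhibitors and Axin2.

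Messenger RNA was counted in 3 immortalized lines of embryonic mouse striatal cells (C57/BL6), with 3 libraries each. The control line, STHdhQ7/Q7, carries a knock-in Htt exon 1 with 7 glutamines on both alleles. The HD-het line, STHdhQ7/Q111, has 1 allele with 7 and 1 with 111, and the HD-homo line, STHdhQ111/Q111, has 111 on both, as models of Huntington disease. Each genotype is 1 line, so genotype and line cannot be told apart. Total RNA was poly(A) selected and made into directional libraries. The counts per library summed to 32280309, 33602679 and 29507665 in control cells, 35978570, 32816147 and 33935537 in HD-het cells and 32399643, 41197931 and 33580623 in HD-homo cells. At these depths 3 counts, taken as the floor, correspond to between 0.0710 and 0.101 normalized CPM (counts scaled to library size); floors and counting intervals cover counting error only. The labels do not say whether the 3 libraries of a line came from separate cultures, so p-values measure the spread between these libraries, which may be technical.

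Wnt proteins are lipid-modified ligands that bind Frizzled receptors. Together with Lrp5 or Lrp6 they stop the destruction complex from marking β-catenin for breakdown, and β-catenin then drives target genes with TCF/LEF factors; other Wnts act through Ror receptors without β-catenin. R-spondins, bound to Lgr receptors, protect Frizzled from removal by Znrf3 and Rnf43, whereas Sfrp proteins bind Wnts and Dkk proteins bind Lrp5 and Lrp6. In the developing forebrain the pathway patterns the tissue, and neural Wnt7 ligands guide its blood vessels.

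The labels call the cells striatal, and the marker genes of striatal neurons were scarce. The 11 markers together summed to 2.74, 2.74 and 2.33 in control libraries, 2.03, 1.89 and 2.22 in HD-het and 3.13, 3.08 and 4.65 in HD-homo normalized CPM. Penk had a mean of 1.28 in control, 0.470 in HD-het and 2.42 in HD-homo cells, and Bcl11b 0.167 in control, 0.562 in HD-het and 0.0739 in HD-homo. Drd1 had 0 counts in all libraries, and Drd2 and Gad1 had at most 3 counts in any library. The 6 general neuronal markers summed to 168, 171 and 139 in control libraries, 117, 117 and 109 in HD-het and 92.0, 93.7 and 115.5 in HD-homo. Among them Map2 averaged 62.9 in control, 60.4 in HD-het and 59.7 in HD-homo cells, Tubb3 42.4 in control, 50.8 in HD-het and 37.8 in HD-homo and Stmn2 53.7 in control, 2.71 in HD-het and 2.75 in HD-homo, while Rbfox3 and Snap25 had at most 3 counts in any library. Neural progenitor markers were present and differed between the lines: their sum was 705, 708 and 666 in control libraries, 1005, 989.6 and 966 in HD-het and 45.4, 32.5 and 40.5 in HD-homo. Nes led that sum, and Pax6 averaged 32.1 in control, 48.2 in HD-het and 0.132 in HD-homo cells. The lines are therefore named here by genotype and not as striatal neurons.

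Other marker lists also moved with the lines. The 8 fibroblast and mesenchyme genes summed to 3475, 3348 and 2569 in control libraries, 9103, 8429 and 7865 in HD-het and 6748, 6496 and 7017 in HD-homo normalized CPM. Col1a1 led that sum, and Pdgfra averaged 5.21 in control, 4.38 in HD-het and 307 in HD-homo cells. The 6 smooth muscle and pericyte genes summed to 2790, 2782 and 2380 in control libraries, 7682, 7203 and 7002 in HD-het and 327, 245 and 343 in HD-homo, with Acta2 as the largest share in control and HD-het cells and Cspg4 in HD-homo cells. Among genes of nephric epithelium, a tissue formed under Wnt control, Pax2 averaged 33.0 in control, 0.0497 in HD-het and 1.33 in HD-homo cells and Lhx1 52.4 in control, 55.3 in HD-het and 0.0336 in HD-homo. The astrocyte sum, mostly Slc1a3, was 2.52, 2.59 and 2.67 in control libraries, 0.620, 0.762 and 1.23 in HD-het and 12.5, 17.8 and 13.8 in HD-homo. By edgeR's quasi-likelihood test (Benjamini-Hochberg adjusted), the tested genes of these lists split as follows: neural progenitor 5 tested, 4 higher and 1 lower in HD-het and 1 higher and 4 lower in HD-homo, each against control; fibroblast and mesenchyme 6 tested, 3 higher and 2 lower in HD-het and 5 higher and 0 lower in HD-homo, each against control. The 5 tested smooth muscle and pericyte genes were 4 higher and 0 lower in HD-het and 2 higher and 2 lower in HD-homo, each against control. Of all tested genes, 33.8% were higher and 31.4% lower in HD-het, and 29.6% and 28.9% in HD-homo cells, against control. The marker counts were not tested against these shares. Endothelial, oligodendrocyte and microglial markers summed to at most 1.55, 2.86 and 2.50 normalized CPM in any library, and Emcn and Aif1 were at 0 in all libraries. The part of these cell identities in the Wnt differences was not tested.

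Most of the tested Wnt genes differed between the lines, and the widest differences were among the ligands, R-spondins and secreted inhibitors. In HD-het cells 20 of the 39 were higher than in control cells, 11 were lower and 8 did not pass an adjusted p of 0.05 by edgeR's quasi-likelihood test (Benjamini-Hochberg adjusted); over all tested genes 33.8% were higher and 31.4% lower. In HD-homo cells 20 were higher than in control cells, 13 lower and 6 did not pass, beside 29.6% and 28.9% of all genes. Between the HD lines, 17 were higher in HD-homo cells, 14 lower and 8 did not pass, beside 36% and 35.6% of all genes. The median size of the log2 fold change over the 39 was 1.3 in HD-het and 2.08 in HD-homo against control cells, and 1.20 between the HD lines, also with Rspo3 at its lower bound. Over all tested genes it was 0.40, 0.32 and 0.46. A change of at least 4-fold past the threshold was seen for 12, 20 and 13 members, or 30.8%, 51.3% and 33.3% of those tested, against 7.59%, 10.5% and 12.1% of all genes. These shares are a description: 14 of the 39 had under 10 counts in some library, and a gene that passed the filter only through the line where it was high had to differ. In bulk RNA, fewer cells of a type and less RNA per cell cannot be told apart. Both HD lines were compared with the same control libraries, so their values are given side by side and not counted as repeats of each other.

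**Figure D1:**
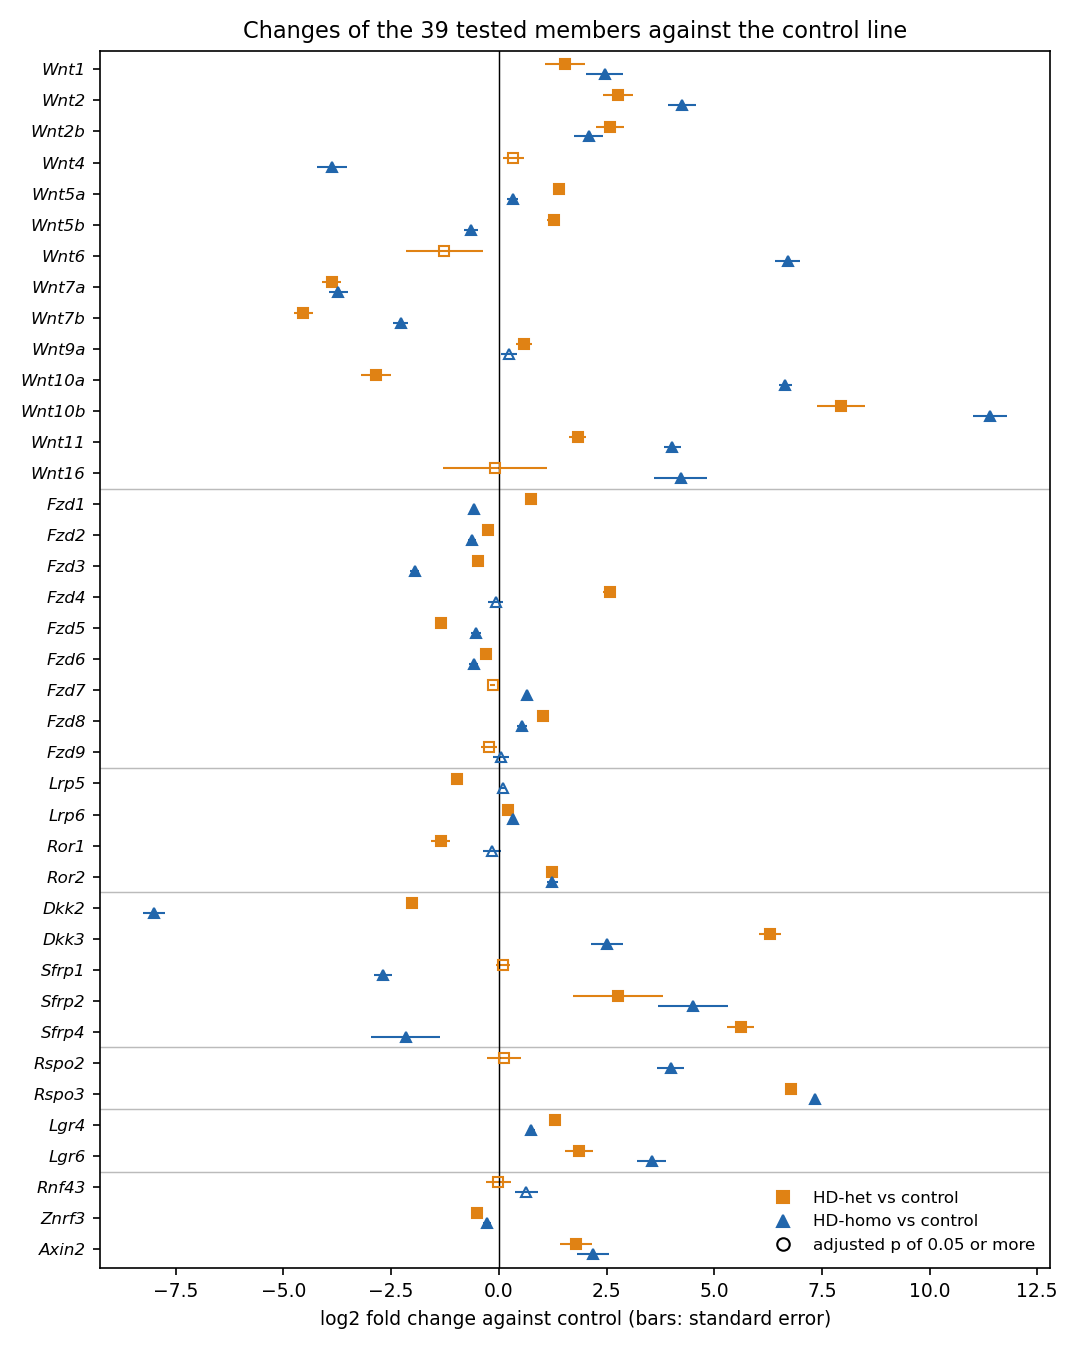
Log2 fold change of each of the 39 tested members in HD-het and HD-homo cells against control cells, with bars for the standard error and open symbols where the adjusted p was 0.05 or more; grey lines separate the roles. Wnt10b lies farthest to the right and Dkk2 farthest to the left, both for HD-homo cells. Rspo3 had 0 counts in control cells, so its 2 symbols are fitted values without a bar.

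Summed over the 19 ligands, the level per length was 16.4 ± 1.33 CPM per kilobase of exon in control cells (mean ± SD, n = 3), 19.3 ± 0.819 in the HD-het line and 73.8 ± 5.78 in the HD-homo line. The leading ligand differed in each line. Wnt7a made up 26.6% of the control sum and Wnt7b 21.5%. Wnt5b led in HD-het cells with 26.3%, before Wnt5a with 21.9%. In HD-homo cells Wnt10a alone made up 56.3% and Wnt10b 15.2%. The sum for the 10 Frizzled receptors moved less, with 92.8 ± 2.18, 87.6 ± 1.47 and 71.9 ± 5.67 CPM per kilobase in the same order of lines. Secreted inhibitors summed to 8.53 ± 0.610, 9.31 ± 0.481 and 1.22 ± 0.438, and the 4 R-spondins to 0.177 ± 0.0410, 0.344 ± 0.118 and 2.72 ± 0.850. The HD-homo libraries thus had the highest ligand and R-spondin sums and the lowest inhibitor sums, without overlap with the other lines. These sums carry no test. With the longest transcript in place of the merged exons, a length chosen after the data were seen, Wnt7b led the control ligands.

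**Figure D2:**
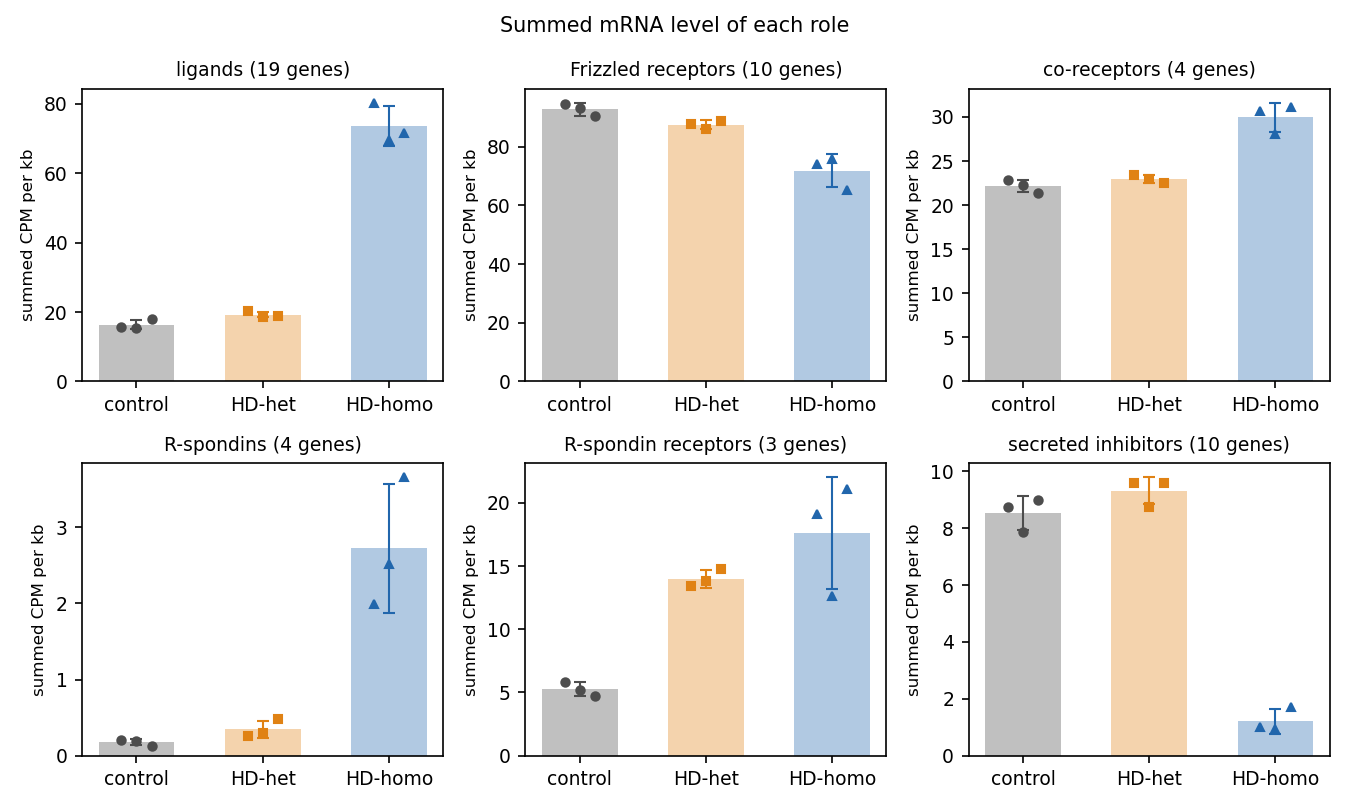
Summed CPM per kilobase of each role by line; points are libraries, bars the mean and error bars the SD of 3 libraries. The ligand sum of HD-homo cells is 73.8, the highest of the 3 lines, and their sum over the 10 secreted inhibitors chosen by symbol, 1.22, is the lowest.

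Of the 14 ligands tested, 8 were higher, 3 lower and 3 not past the threshold in HD-het against control cells, and 9 were higher, 4 lower and 1 not past it in HD-homo cells. Their median log2 fold change was 0.93 and 2.27, beside 0.03 and 0.01 over all tested genes. The ligand counts stand beside 33.8% higher and 31.4% lower of all tested genes in HD-het, and 29.6% and 28.9% in HD-homo cells. Wnt10a, a ligand of skin, hair and tooth development, was the leading ligand of HD-homo cells per length. Wnt10a measured 1.03, 1.04 and 0.981 normalized CPM in control replicates, against 0.169, 0.122 and 0.12 for HD-het and 123, 92.0 and 92.8 for HD-homo. The HD-homo libraries were all far above the rest, and the HD-het libraries were all below control. Wnt10a mRNA was 101-fold higher (log2 fold change 6.65, SE 0.151, adjusted p = 2.86e-11) in HD-homo than in control cells by edgeR's quasi-likelihood test (Benjamini-Hochberg adjusted). It was 7.42-fold lower (log2 fold change -2.85, SE 0.345, adjusted p = 2.38e-05) in HD-het cells by the same test, which left a difference of 748-fold between the HD lines (adjusted p = 1.57e-11). Wnt10b, which acts in bone and fat cell differentiation, was close to absent from control cells. Wnt10b counts came to 0, 1 and 0 (control), 133, 107 and 115 (HD-het) and 1181, 2038 and 1014 (HD-homo). Control replicates held 0, 0.0297 and 0 normalized CPM of Wnt10b, HD-het replicates 3.75, 3.26 and 3.44 and HD-homo replicates 36.2, 48.3 and 30.2. The 3 lines did not overlap and HD-homo libraries were highest. Against control cells, where only replicate 2 had a count, Wnt10b was 333-fold higher (95% counting interval 59.4 to 13190) in HD-het cells (adjusted p = 3.32e-07) and 3725-fold higher (95% counting interval 668 to 147100) in HD-homo cells (adjusted p = 7.31e-10). Without control replicate 2 no control count remained, and the fitted log2 fold changes, which then have no bound, moved from 7.95 to 9.89 and from 11.40 to 13.35. Between the HD lines it was 11.0-fold higher (log2 fold change 3.46, SE 0.175, adjusted p = 1.67e-08), higher in HD-homo cells.

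Wnt6, an epithelial ligand, was found almost only in HD-homo cells. Wnt6 counts came to 1, 2 and 2 (control), 1, 0 and 1 (HD-het) and 210, 222 and 198 (HD-homo). In normalized CPM this was 5.87 ± 0.592 (SD, n = 3) in HD-homo cells. Control and HD-het libraries were all under the floor of 3 counts and the HD-homo libraries all above it. Wnt6 was 111-fold higher (95% counting interval 47.3 to 343) in HD-homo than in control cells by the same quasi-likelihood test (adjusted p = 5.59e-09) and 295.5-fold higher (95% counting interval 81.5 to 2445) than in HD-het cells (adjusted p = 2.84e-09). Normalized CPM for Wnt11 came to 1.80, 1.73 and 1.01 (control), 6.01, 5.00 and 5.24 (HD-het) and 25.1, 20.6 and 29.2 (HD-homo). Wnt11, a ligand that mostly signals without β-catenin and is known from kidney and heart development, rose in steps from control to HD-het to HD-homo cells with no overlap. The difference from control was 3.58-fold higher (log2 fold change 1.83, SE 0.207, adjusted p = 1.55e-05) in HD-het and 16.5-fold higher (log2 fold change 4.03, SE 0.195, adjusted p = 1.54e-08) in HD-homo cells. Wnt2 measured 0.622, 0.654 and 0.169 normalized CPM in control replicates, against 3.41, 3.90 and 2.73 for HD-het and 7.97, 8.19 and 12.2 for HD-homo. Wnt2, known from lung and vascular development, had the same order of the lines, and control replicate 3 was the lowest library. It was 6.95-fold higher (log2 fold change 2.76, SE 0.345, adjusted p = 3.28e-05) in HD-het and 19.6-fold higher (log2 fold change 4.26, SE 0.323, adjusted p = 6.27e-07) in HD-homo cells. Control replicates held 0.218, 0.238 and 0.169 normalized CPM of Wnt2b, HD-het replicates 1.44, 1.31 and 1.08 and HD-homo replicates 0.981, 0.592 and 1.16. Its relative Wnt2b was lowest in all control libraries, while the HD lines overlapped. Wnt2b was 6.13-fold higher (log2 fold change 2.59, SE 0.327, adjusted p = 3.38e-05) in HD-het and 4.38-fold higher (log2 fold change 2.08, SE 0.341, adjusted p = 0.000291) in HD-homo cells. For Wnt2b between the HD lines the threshold was passed when HD-homo replicate 3 was left out (adjusted p = 0.0245), and its adjusted p ran from 0.0245 to 0.338 over the 19 alternatives.

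Wnt7a and Wnt7b, the ligands that neural cells use to signal to brain vessels, were the control line's leading pair. Wnt7a measured 11.8, 12.7 and 17.1 normalized CPM in control replicates, against 0.818, 0.732 and 1.26 for HD-het and 0.797, 1.21 and 1.1 for HD-homo. Normalized CPM for Wnt7b came to 15.9, 16.0 and 19.9 (control), 0.620, 1.04 and 0.569 (HD-het) and 4.29, 2.84 and 3.61 (HD-homo). Every control library exceeded every HD library for both genes. Wnt7a was 14.8-fold lower (log2 fold change -3.88, SE 0.225, adjusted p = 1.05e-07) in HD-het and 13.4-fold lower (log2 fold change -3.72, SE 0.219, adjusted p = 7.48e-08) in HD-homo cells, and the HD lines overlapped. Wnt7b was 23.3-fold lower (log2 fold change -4.54, SE 0.222, adjusted p = 2.9e-08) in HD-het and 4.83-fold lower (log2 fold change -2.28, SE 0.180, adjusted p = 8.9e-07) in HD-homo cells, and HD-homo libraries were above HD-het libraries (adjusted p = 6.48e-06). Control replicates held 5.20, 5.20 and 5.78 normalized CPM of Wnt4, HD-het replicates 5.87, 4.88 and 9.64 and HD-homo replicates 0.153, 0.450 and 0.477. Wnt4, needed for kidney tubule and female reproductive tract formation, was low in the HD-homo libraries alone, and HD-het replicate 3 was the highest library. It was 15.0-fold lower (log2 fold change -3.86, SE 0.348, adjusted p = 2.62e-06) in HD-homo than in control cells. HD-het and control libraries overlapped (adjusted p = 0.253).

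The ligands Wnt5a and Wnt5b, which mainly act through Ror receptors, were highest in HD-het cells. Normalized CPM for Wnt5a came to 13.9, 13.2 and 10.6 (control), 31.6, 32.0 and 35.4 (HD-het) and 15.9, 13.3 and 17.9 (HD-homo). Wnt5b measured 5.82, 4.55 and 6.36 normalized CPM in control replicates, against 15.3, 13.8 and 11.2 for HD-het and 3.16, 3.58 and 3.94 for HD-homo. All HD-het libraries were above all others for both genes, and the HD-homo libraries overlapped control for Wnt5a but lay below control for Wnt5b. Wnt5a was 2.63-fold higher (log2 fold change 1.39, SE 0.125, adjusted p = 2.7e-06) in HD-het cells and only 1.25-fold higher (log2 fold change 0.32, SE 0.127, adjusted p = 0.0487) in the homozygous line. The Wnt5a call in HD-homo cells was lost when any of control replicates 2 and 3, HD-het replicates 1, 2 and 3, and HD-homo replicates 1 and 3 was left out (adjusted p from 0.0527 to 0.181), and its adjusted p ran from 0.00930 to 0.181 over the 19 alternatives. The same held with DESeq2 size factors (0.0506), only these 2 lines in the fit (0.0797) and a replicate block (0.0641), adjusted p in parentheses. Wnt5b was 2.41-fold higher (log2 fold change 1.27, SE 0.153, adjusted p = 2.45e-05) in HD-het and 1.57-fold lower (log2 fold change -0.64, SE 0.164, adjusted p = 0.00586) in HD-homo cells. Control replicates held 7.93, 7.43 and 8.25 normalized CPM of Wnt9a, HD-het replicates 12.8, 11.2 and 11.2 and HD-homo replicates 8.06, 7.10 and 12.7. Wnt9a, a ligand of joint formation, was higher in the HD-het than in the control libraries, and HD-homo libraries spread over both. It was 1.49-fold higher (log2 fold change 0.58, SE 0.183, adjusted p = 0.0162) in HD-het cells, and for the HD-homo line its adjusted p was 0.294. The Wnt9a call in HD-het cells was lost when either of control replicate 2 and HD-het replicate 1 was left out (adjusted p from 0.0554 to 0.0599), and its adjusted p ran from 0.000244 to 0.0599 over the 19 alternatives. For Wnt9a between the HD lines the threshold was passed when HD-homo replicate 3 was left out (adjusted p = 0.000332), and its adjusted p ran from 0.000332 to 0.363 over the 19 alternatives.

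Wnt1, the midbrain organizer ligand, and Wnt16, known for its part in cortical bone, were scarce. Wnt1 counts came to 2, 7 and 5 (control), 18, 10 and 16 (HD-het) and 18, 34 and 37 (HD-homo). Wnt16 counts came to 0, 1 and 3 (control), 2, 0 and 2 (HD-het) and 18, 41 and 34 (HD-homo). In normalized CPM, where Wnt1 was at most 0.508 in HD-het and at least 0.552 in HD-homo libraries, every HD-homo library was above every other library for both genes. For Wnt16 the control and HD-het libraries were at or under 3 counts. Wnt1 was 2.94-fold higher (log2 fold change 1.53, SE 0.471, adjusted p = 0.0128) in HD-het and 5.60-fold higher (log2 fold change 2.45, SE 0.421, adjusted p = 0.000399) in HD-homo cells. The Wnt1 call in HD-het cells was lost when control replicate 1 was left out (adjusted p = 0.0543), and its adjusted p ran from 0.00754 to 0.0543 over the 19 alternatives. The Wnt1 call between the HD lines was lost when either of HD-het replicate 2 and HD-homo replicate 3 was left out (adjusted p from 0.102 to 0.109), and its adjusted p ran from 0.0117 to 0.109 over the 19 alternatives. The same held with the DESeq2 Wald test (0.0839), adjusted p in parentheses. Wnt16 was 20.5-fold higher (95% counting interval 7.73 to 76.7) in HD-homo than in control cells (adjusted p = 0.000107), and its fitted log2 fold change moved from 4.23 to 5.50 without control replicate 3. The other 5 ligands were not tested: Wnt3a had at most 4 counts in a library, Wnt8a at most 2, and Wnt3, Wnt8b and Wnt9b at most 1. At this depth their differences were not detectable.

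**Figure D3:**
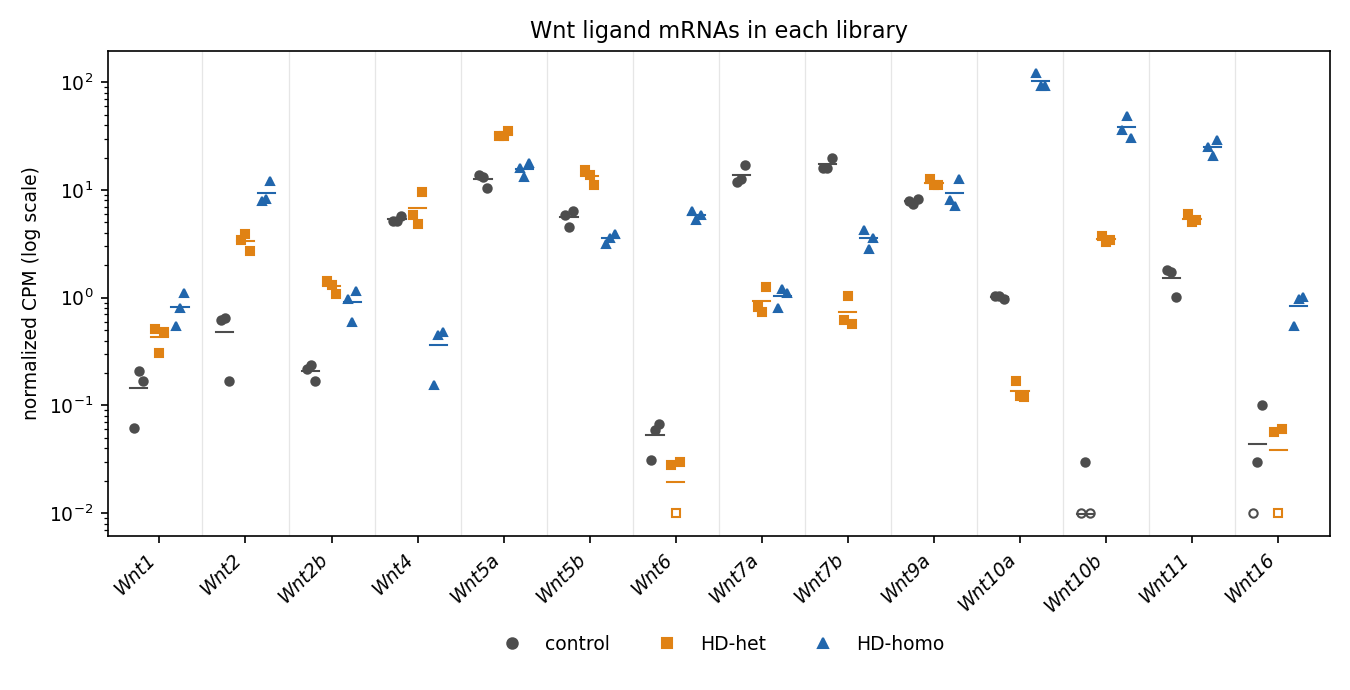
Normalized CPM of the 14 tested ligands in each library on a log axis; short lines are means, and open symbols, drawn at 0.01 because the axis has no 0, are libraries with 0 counts. Wnt10a spans from 0.12 in an HD-het library to 123 in an HD-homo library, while Wnt7a and Wnt7b are highest in control cells.

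Several of these ligand genes are neighbors in the genome. On chromosome 1 (GRCm38, RefSeq) Wnt6 lies at 74754342-74785322 and Wnt10a at 74792019-74804176, 6.70 kb apart. The genes around them were looked up after the values were seen. Prkag3 counts came to 6, 6 and 1 (control), 1, 2 and 2 (HD-het) and 42, 56 and 40 (HD-homo). Cyp27a1 counts came to 1, 0 and 0 (control), 2, 5 and 0 (HD-het) and 16, 16 and 14 (HD-homo). Cdk5r2 counts came to 0, 0 and 0 (control), 1, 1 and 0 (HD-het) and 26, 21 and 16 (HD-homo). All HD-homo libraries were above all others for each of these genes. They reached 10 counts only in HD-homo libraries and so passed the filter only through the line where they were high. They thus had to differ, and their adjusted p-values are a description. Prkag3, a subunit of the energy sensor AMPK on the Wnt6 side, rose by 3.19 on the log2 scale (adjusted p = 1.14e-05), and Cyp27a1, a sterol hydroxylase beyond it, passed the same test (adjusted p = 0.000399). Cdk5r2, the next gene past Wnt10a and a neuronal activator of Cdk5, also passed (adjusted p = 6.27e-05), and averaged 0.591 ± 0.179 normalized CPM in HD-homo cells. The next 4 genes on that side, Fev, Cryba2, Cfap65 and Ihh, were not tested and had at most 2 counts in an HD-homo library. Farther out on the Wnt6 side, Ttll4 and Stk36 did not pass in HD-homo cells (adjusted p = 0.145 and 0.614), and Rnf25 rose by 0.22 on the log2 scale (adjusted p = 0.0268). The pair on chromosome 15, Wnt10b at 98770712-98778206 and Wnt1 at 98789857-98793830, lies 11.7 kb apart. Its nearest tested neighbors were the abundant genes Arf3 and Prkag1, whose log2 fold changes in HD-homo cells were 0.27 and 0.16 (adjusted p = 0.00152 and 0.0395). In HD-het cells, where Wnt10b and Wnt1 were higher, Arf3 and Prkag1 were lower, with log2 fold changes of -0.38 and -0.36 (adjusted p = 0.000126 and 0.000233).

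Promoter sequences from RefSeq (GRCm38.p6) were at hand for 35 of the 53 genes, with 39 entries of 300 bases that run from 250 before to 50 after the start. The TCF/LEF core words CTTTGAT and CTTTGAA were searched on both strands. They occurred in 3 of the 39 entries, or 7.69%, and in 8.65% of the 32851 promoters of that length. The hits were in Dkk1 (CTTTGAA, first base at -117 from the start), in 1 of the 2 Wnt11 entries (ATCAAAG, the reverse complement of CTTTGAT, at -51) and in 1 of the 3 Wnt5b entries (CTTTGAT at -71). A hit is a match of letters and no measured site. The median GC content was 66.7% for the members' entries and 52.7% for all promoters. Wnt10a and Dkk3 have no entry. The 250 bases before the start are shown for Wnt10b at chr15:98778151-98778400 (minus strand) and Wnt6 at chr1:74771642-74771891 (plus strand), the entries with the largest increases in HD-homo cells, and for Dkk2 at chr3:132085042-132085291 (plus strand), with the largest decrease. Wnt11 at chr7:98834862-98835111 (plus strand) is shown because it rose and holds a TCF/LEF word. The start of the Wnt6 entry lies inside the RefSeq span of the gene, which begins farther upstream. Capitals mark the TCF/LEF word. GC content over the 300 bases was 66.3% for Wnt10b, 76.7% for Wnt6, 71.3% for Wnt11 and 57.7% for Dkk2.
Wnt10b: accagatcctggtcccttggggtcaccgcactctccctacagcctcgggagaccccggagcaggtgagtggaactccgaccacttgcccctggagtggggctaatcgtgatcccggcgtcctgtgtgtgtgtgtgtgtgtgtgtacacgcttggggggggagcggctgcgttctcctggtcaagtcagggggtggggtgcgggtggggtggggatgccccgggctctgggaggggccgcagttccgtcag
Wnt6: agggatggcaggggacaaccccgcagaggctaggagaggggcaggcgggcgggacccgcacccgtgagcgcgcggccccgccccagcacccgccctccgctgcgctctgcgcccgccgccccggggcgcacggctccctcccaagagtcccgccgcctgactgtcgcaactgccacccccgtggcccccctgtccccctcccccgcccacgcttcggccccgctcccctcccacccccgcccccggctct
Wnt11: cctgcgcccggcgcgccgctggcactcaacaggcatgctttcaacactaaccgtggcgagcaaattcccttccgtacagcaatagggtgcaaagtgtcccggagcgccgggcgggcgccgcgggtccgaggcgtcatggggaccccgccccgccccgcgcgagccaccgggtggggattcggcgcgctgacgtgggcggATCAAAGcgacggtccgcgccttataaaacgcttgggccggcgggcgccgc
Dkk2: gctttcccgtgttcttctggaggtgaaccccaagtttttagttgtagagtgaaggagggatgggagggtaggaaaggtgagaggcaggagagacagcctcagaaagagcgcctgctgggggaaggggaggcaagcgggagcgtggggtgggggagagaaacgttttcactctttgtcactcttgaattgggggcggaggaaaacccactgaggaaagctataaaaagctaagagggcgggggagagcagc

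The Frizzled receptors, which bind the ligands, differed less than the ligands. Of 9 tested, 3 were higher, 4 lower and 2 not past the threshold in HD-het against control cells, and 2, 5 and 2 in HD-homo cells. Their median log2 fold change was -0.22 and -0.53. The median size of the change was 0.49 in HD-het and 0.58 in HD-homo cells, against 1.68 and 3.79 for the tested ligands. This difference between the roles was not tested. The Frizzled counts stand beside 33.8% higher and 31.4% lower of all tested genes in HD-het, and 29.6% and 28.9% in HD-homo cells. Per length, Fzd6 was the highest in each line, at 32.5 ± 1.14 CPM per kilobase in control, 26.4 ± 1.65 in HD-het and 21.7 ± 3.95 in HD-homo cells (SD, n = 3). It was 35.0%, 30.2% and 30.1% of the Frizzled sum. Control replicates held 161, 158 and 150.5 normalized CPM of Fzd6, HD-het replicates 130.4, 133 and 118 and HD-homo replicates 112, 118 and 82.7. Fzd3 measured 33.2, 34.3 and 31.8 normalized CPM in control replicates, against 22.5, 25.4 and 23.1 for HD-het and 8.62, 9.61 and 7.37 for HD-homo. These receptors of planar cell polarity and axon guidance fell in order from control to HD-het to HD-homo libraries without overlap. Fzd3 was 1.40-fold lower (log2 fold change -0.49, SE 0.0921, adjusted p = 0.000717) in HD-het and 3.88-fold lower (log2 fold change -1.95, SE 0.0983, adjusted p = 2.08e-08) in HD-homo cells by edgeR's quasi-likelihood test (Benjamini-Hochberg adjusted). Fzd6 was 1.23-fold lower (log2 fold change -0.30, SE 0.111, adjusted p = 0.0347) in HD-het and 1.5-fold lower (log2 fold change -0.58, SE 0.111, adjusted p = 0.000925) in HD-homo cells. The Fzd6 call in HD-het cells was lost when any of control replicates 1, 2 and 3, and HD-het replicates 1, 2 and 3 was left out (adjusted p from 0.0508 to 0.109), and its adjusted p ran from 0.00102 to 0.109 over the 19 alternatives. The Fzd6 call between the HD lines was lost when any of control replicate 2, HD-het replicates 1 and 2, and HD-homo replicate 3 was left out (adjusted p from 0.0513 to 0.105), and its adjusted p ran from 0.00742 to 0.105 over the 19 alternatives. The same held with library totals in place of TMM (0.0699) and only these 2 lines in the fit (0.0634), adjusted p in parentheses.

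Fzd1, Fzd2 and Fzd7 form a subfamily of close relatives and did not move together. Control replicates held 53.3, 53.3 and 52.4 normalized CPM of Fzd1, HD-het replicates 86.9, 86.9 and 94.0 and HD-homo replicates 34.9, 36.9 and 34.6. Normalized CPM for Fzd2 came to 88.4, 87.2 and 84.4 (control), 72.3, 64.3 and 80.2 (HD-het) and 63.2, 52.4 and 54.1 (HD-homo). Fzd7 measured 51.3, 48.9 and 48.8 normalized CPM in control replicates, against 45.8, 43.5 and 45.5 for HD-het and 75.5, 83.4 and 75.2 for HD-homo. HD-het libraries were highest and HD-homo libraries lowest for Fzd1, control libraries were highest for Fzd2, and HD-homo libraries were highest for Fzd7, each without overlap. By the same quasi-likelihood test Fzd1 was 1.69-fold higher (log2 fold change 0.75, SE 0.0564, adjusted p = 7.07e-07) in HD-het and 1.5-fold lower (log2 fold change -0.58, SE 0.0573, adjusted p = 5.81e-06) in HD-homo cells. Fzd2 was 1.20-fold lower (log2 fold change -0.26, SE 0.0890, adjusted p = 0.0228) in HD-het and 1.53-fold lower (log2 fold change -0.62, SE 0.0896, adjusted p = 0.000128) in HD-homo cells. The Fzd2 call in HD-het cells was lost when any of control replicates 1 and 2, and HD-het replicates 1 and 2 was left out (adjusted p from 0.0579 to 0.0978), and its adjusted p ran from 0.00646 to 0.0978 over the 19 alternatives. Fzd7 was 1.57-fold higher (log2 fold change 0.65, SE 0.0605, adjusted p = 3.37e-06) in HD-homo cells, while in the HD-het line its log2 fold change was -0.14 (adjusted p = 0.0570). For Fzd7 in HD-het cells the threshold was passed when HD-homo replicate 2 was left out (adjusted p = 0.0309), and its adjusted p ran from 0.0279 to 0.181 over the 19 alternatives. The same held with DESeq2 size factors (0.0491), library totals in place of TMM (0.0458), a filter at a mean of 10 counts (0.0459) and only these 2 lines in the fit (0.0279), adjusted p in parentheses. Per length, Fzd7 stood at 17.2 ± 1.03 CPM per kilobase in HD-homo cells, second to Fzd6.

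Fzd4, the receptor for Norrin as well as for Wnts, was the Frizzled gene with the largest increase in HD-het cells. Normalized CPM for Fzd4 came to 2.71, 2.77 and 2.13 (control), 12.8, 14.5 and 18 (HD-het) and 2.27, 2.25 and 2.74 (HD-homo). All HD-het libraries were above all others, and control and HD-homo libraries overlapped. It was 5.97-fold higher (log2 fold change 2.57, SE 0.16, adjusted p = 1.78e-07) in HD-het cells by the same test, and for the HD-homo line the adjusted p was 0.742. Fzd5 measured 55.8, 57.6 and 57.4 normalized CPM in control replicates, against 24.2, 24.3 and 18.6 for HD-het and 35.2, 47.2 and 35.9 for HD-homo. Control replicates held 6.56, 6.87 and 5.92 normalized CPM of Fzd8, HD-het replicates 14.2, 12.9 and 12.1 and HD-homo replicates 10.2, 8.45 and 9.60. The related receptors Fzd5 and Fzd8, both used in eye and forebrain development, moved apart: every control library was highest for Fzd5 and lowest for Fzd8, and HD-het libraries were lowest for Fzd5 and highest for Fzd8. Fzd5 was 2.54-fold lower (log2 fold change -1.35, SE 0.126, adjusted p = 3.8e-06) in HD-het and 1.45-fold lower (log2 fold change -0.53, SE 0.123, adjusted p = 0.00334) in HD-homo cells. Fzd8 was 2.02-fold higher (log2 fold change 1.01, SE 0.108, adjusted p = 9.82e-06) in HD-het and 1.46-fold higher (log2 fold change 0.54, SE 0.109, adjusted p = 0.00136) in HD-homo cells. Fzd9 averaged 1.82 ± 0.0919, 1.56 ± 0.186 and 1.90 ± 0.355 normalized CPM in control, then HD-het, then HD-homo cells, and ranged from 1.40 to 2.15 with all lines overlapping, and did not pass in any comparison (adjusted p = 0.310, 0.835 and 0.205). For Fzd9 between the HD lines the threshold was passed when HD-homo replicate 2 was left out (adjusted p = 0.0465), and its adjusted p ran from 0.0465 to 0.464 over the 19 alternatives. Fzd10 had 0 counts in all libraries, under the floor of 3 counts.

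Lrp5 and Lrp6, the co-receptors that relay the signal to β-catenin, stood at 8.90 ± 0.00831 and 7.48 ± 0.247 CPM per kilobase in control cells, an order that turned with the longest transcript in place of merged exons. Normalized CPM for Lrp5 came to 86.7, 86.7 and 86.5 (control), 44.6, 40.9 and 46.5 (HD-het) and 101, 85.9 and 93.3 (HD-homo). Lrp6 measured 103, 105 and 98.5 normalized CPM in control replicates, against 116, 122 and 115 for HD-het and 119, 137 and 129.8 for HD-homo. HD-het libraries were all lowest for Lrp5, whose control and HD-homo libraries overlapped, and control libraries were all lowest for Lrp6. By the same quasi-likelihood test Lrp5 was 1.97-fold lower (log2 fold change -0.98, SE 0.0709, adjusted p = 5.64e-07) in HD-het cells, and for the HD-homo line its adjusted p was 0.203. Lrp6 was 1.15-fold higher (log2 fold change 0.20, SE 0.0622, adjusted p = 0.0136) in HD-het and 1.26-fold higher (log2 fold change 0.33, SE 0.0621, adjusted p = 0.000839) in HD-homo cells. The Lrp6 call in HD-het cells was lost when either of control replicate 3 and HD-het replicate 2 was left out (adjusted p from 0.05 to 0.0552), and its adjusted p ran from 0.00512 to 0.0552 over the 19 alternatives. For Lrp6 between the HD lines the threshold was passed when HD-homo replicate 1 was left out (adjusted p = 0.0220), and its adjusted p ran from 0.0220 to 0.256 over the 19 alternatives. The same held with library totals in place of TMM (0.0493) and a replicate block (0.0495), adjusted p in parentheses. Control replicates held 11.7, 10.6 and 11.0 normalized CPM of Ror1, HD-het replicates 4.12, 3.17 and 5.75 and HD-homo replicates 7.57, 9.21 and 13.2. Normalized CPM for Ror2 came to 18.5, 16.4 and 14.5 (control), 40.7, 39.7 and 35.4 (HD-het) and 43.9, 32.4 and 41.3 (HD-homo). These Wnt5a receptors also differed from each other: HD-het libraries were all lowest for Ror1, and control libraries all lowest for Ror2. Ror1 was 2.55-fold lower (log2 fold change -1.35, SE 0.226, adjusted p = 0.00029) in HD-het cells, and its HD-homo libraries overlapped control (adjusted p = 0.564). Ror2 was 2.34-fold higher (log2 fold change 1.23, SE 0.124, adjusted p = 6.52e-06) in HD-het and 2.38-fold higher (log2 fold change 1.25, SE 0.123, adjusted p = 5.88e-06) in HD-homo cells. Of the 4 co-receptors, 2 were thus higher and 2 lower in HD-het cells, and 2 higher with 2 not past the threshold in HD-homo cells. Beside them, 33.8% of all tested genes were higher and 31.4% lower in HD-het, and 29.6% and 28.9% in HD-homo cells.

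**Figure D4:**
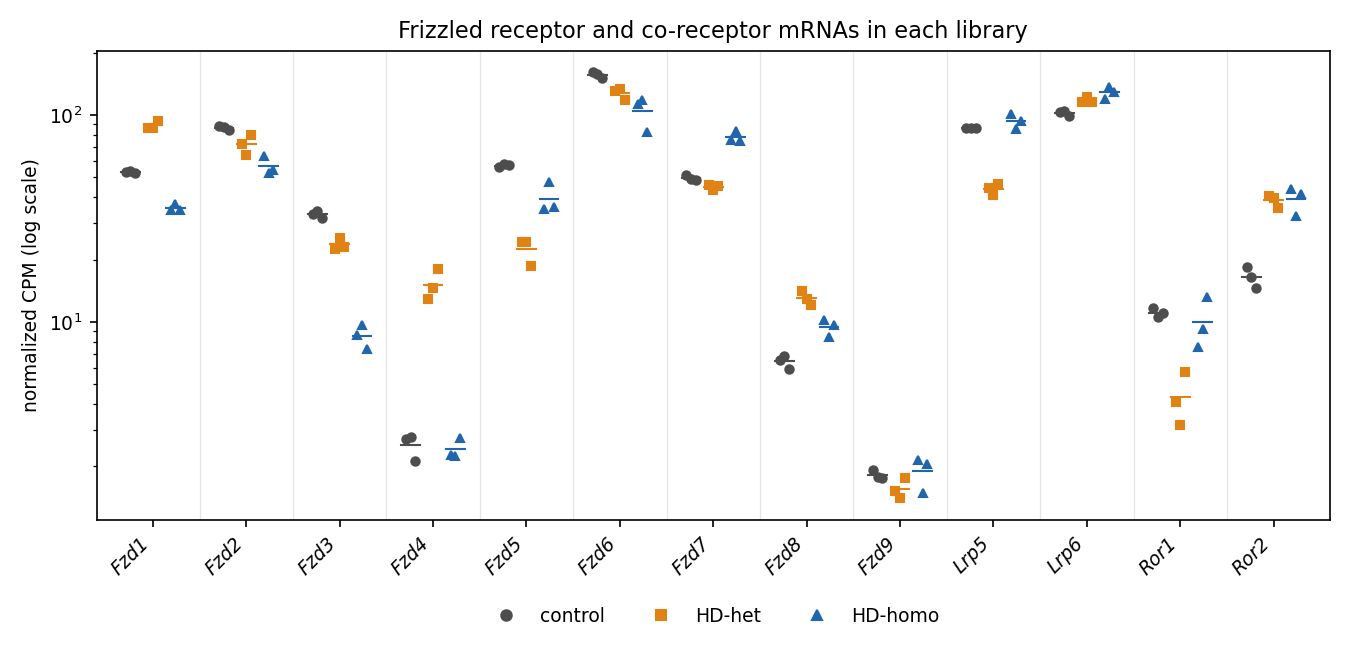
Normalized CPM of the 9 tested Frizzled receptors and 4 co-receptors in each library on a log axis, with short lines for the means. Fzd4 stands out in HD-het cells at 15.1 ± 2.63 (SD, n = 3), and Fzd3 is lowest in HD-homo cells at 8.53 ± 1.13.

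R-spondins, which raise Wnt responses at the cell surface, were rare apart from Rspo2 in HD-homo cells. Rspo2 measured 0.840, 0.833 and 0.575 normalized CPM in control replicates, against 0.648, 0.579 and 1.23 for HD-het and 8.89, 10.5 and 16.7 for HD-homo. The HD-homo libraries were all far above the rest, and control and HD-het libraries overlapped. Rspo2 was 16.0-fold higher (log2 fold change 3.99, SE 0.312, adjusted p = 8.29e-07) in HD-homo than in control cells by edgeR's quasi-likelihood test (Benjamini-Hochberg adjusted), and in HD-het cells the adjusted p was 0.811. Rspo3 counts came to 0, 0 and 0 (control), 11, 10 and 20 (HD-het) and 16, 31 and 18 (HD-homo). Rspo3 thus had no counts in control cells, and its increase was by at least 4.28-fold in HD-het (adjusted p = 0.000189); the bound for HD-homo was 6.20-fold (adjusted p = 7.32e-05), against 3 counts per library. For Rspo3 between the HD lines the threshold was passed when HD-het replicate 3 was left out (adjusted p = 0.0361), and its adjusted p ran from 0.0361 to 0.443 over the 19 alternatives. Rspo1 and Rspo4 were not tested, with at most 12 and 10 counts in a library. The R-spondin receptors Lgr4 and Lgr6 rose in both HD lines. Control replicates held 29.3, 25.2 and 22.8 normalized CPM of Lgr4, HD-het replicates 63.1, 64.6 and 62.4 and HD-homo replicates 41.5, 43.0 and 46.0. Normalized CPM for Lgr6 came to 5.75, 6.36 and 5.78 (control), 18.1, 19.1 and 28.4 (HD-het) and 82.6, 36.0 and 91.2 (HD-homo). Control libraries were all lowest for both genes. HD-het libraries were all highest for Lgr4 and HD-homo libraries for Lgr6, where HD-homo replicate 2 was well under replicates 1 and 3. Lgr4 was 2.46-fold higher (log2 fold change 1.3, SE 0.0860, adjusted p = 2.89e-07) in HD-het and 1.69-fold higher (log2 fold change 0.76, SE 0.0859, adjusted p = 1.86e-05) in HD-homo cells. Lgr6 was 3.66-fold higher (log2 fold change 1.87, SE 0.324, adjusted p = 0.000379) in HD-het and 11.7-fold higher (log2 fold change 3.55, SE 0.327, adjusted p = 3.22e-06) in HD-homo cells. Per length, Lgr4 led in control cells (4.38 ± 0.554 against 0.871 ± 0.0502 CPM per kilobase for Lgr6), while in HD-homo cells the pair stood at 7.40 ± 0.391 and 10.2 ± 4.34, within the spread of Lgr6. Lgr5, the stem cell marker of gut and hair, was not tested; its counts came to 8, 5 and 12 (control), 7, 8 and 5 (HD-het) and 1, 1 and 3 (HD-homo), lowest in HD-homo libraries.

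Znrf3 and Rnf43 are membrane ubiquitin ligases that remove Frizzled receptors, and R-spondins block them. Znrf3 measured 50, 44.8 and 42.7 normalized CPM in control replicates, against 31.8, 34.7 and 29.8 for HD-het and 40.2, 35.6 and 37.8 for HD-homo. Every control library was above every HD library, and HD-homo libraries were above HD-het libraries. Znrf3 was 1.43-fold lower (log2 fold change -0.51, SE 0.0830, adjusted p = 0.000225) in HD-het and 1.21-fold lower (log2 fold change -0.28, SE 0.0824, adjusted p = 0.0139) in HD-homo cells by the same quasi-likelihood test. The Znrf3 call in HD-homo cells was lost when control replicate 1 was left out (adjusted p = 0.0731), and its adjusted p ran from 0.00553 to 0.0731 over the 19 alternatives. The Znrf3 call between the HD lines was lost when any of HD-het replicates 1 and 3, and HD-homo replicate 1 was left out (adjusted p from 0.0634 to 0.0817), and its adjusted p ran from 0.0130 to 0.0817 over the 19 alternatives. Rnf43 averaged 0.339 ± 0.0691, 0.333 ± 0.0626 and 0.528 ± 0.0353 normalized CPM in the order control, HD-het, HD-homo and ranged from 0.268 to 0.567, with the HD-homo libraries highest. Its adjusted p was 0.992 in HD-het and 0.0635 in HD-homo against control cells, and 0.0476 between the HD lines. The Rnf43 call between the HD lines was lost when any of control replicate 1, HD-het replicates 2 and 3, and HD-homo replicates 1, 2 and 3 was left out (adjusted p from 0.0604 to 0.158), and its adjusted p ran from 0.0377 to 0.208 over the 19 alternatives. The same held with the DESeq2 Wald test (0.208), no filter (0.0761), only these 2 lines in the fit (0.0572) and a replicate block (0.0516), adjusted p in parentheses.

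The secreted inhibitors chosen by symbol, which leave out Notum, changed in kind between control and HD-het cells, and their sum was low in HD-homo cells. Of 5 tested, 3 were higher, 1 lower and 1 not past the threshold in HD-het against control cells, and 2 were higher and 3 lower in HD-homo cells. The inhibitor counts stand beside 33.8% higher and 31.4% lower of all tested genes in HD-het, and 29.6% and 28.9% in HD-homo cells. Control replicates held 16.1, 16.0 and 20.2 normalized CPM of Dkk2, HD-het replicates 5.02, 4.02 and 3.95 and HD-homo replicates 0.0307, 0.0710 and 0.0895. Dkk2 counts came to 519, 539 and 598 (control), 178, 132 and 132 (HD-het) and 1, 3 and 3 (HD-homo). Dkk2, which binds Lrp5 and Lrp6, was high in control, lower in HD-het and at or under 3 counts in all HD-homo libraries. It was 4.03-fold lower (log2 fold change -2.01, SE 0.139, adjusted p = 4e-07) in HD-het cells and 269-fold lower (95% counting interval 130.2 to 669.8) in HD-homo cells (adjusted p = 4.31e-10). Normalized CPM for Sfrp1 came to 18.1, 14.7 and 14.4 (control), 15.9, 15.1 and 19.5 (HD-het) and 1.78, 2.18 and 3.40 (HD-homo). Sfrp1, a decoy that binds Wnt proteins, overlapped between control and HD-het libraries (adjusted p = 0.641) and was below both in all HD-homo libraries. It was 6.42-fold lower (log2 fold change -2.69, SE 0.201, adjusted p = 5.7e-07) in HD-homo than in control cells. Dkk2 and Sfrp1 made up 55.2% and 42.2% of the inhibitor sum per length in control cells, and Sfrp1 led in HD-het and HD-homo cells with 41.3% and 46.1%.

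Dkk3, a divergent Dkk protein, and Sfrp4, a relative of Sfrp1, appeared mainly in HD-het cells. Dkk3 measured 0.0622, 0.149 and 0.0676 normalized CPM in control replicates, against 8.38, 7.80 and 6.89 for HD-het and 0.705, 0.474 and 0.507 for HD-homo. Sfrp4 counts came to 5, 4 and 4 (control), 256, 240 and 201 (HD-het) and 0, 3 and 0 (HD-homo). All HD-het libraries were far above all others for both genes, and HD-homo libraries were above control for Dkk3 and below control for Sfrp4. Dkk3 was 82.8-fold higher (log2 fold change 6.29, SE 0.265, adjusted p = 1.02e-08) in HD-het and 6.05-fold higher (log2 fold change 2.51, SE 0.377, adjusted p = 0.00014) in HD-homo cells by the same quasi-likelihood test. Sfrp4 averaged 6.85 ± 0.722 normalized CPM in HD-het and 0.137 ± 0.0183 in control cells (SD, n = 3) and was 50.2-fold higher (log2 fold change 5.61, SE 0.305, adjusted p = 6.11e-08) in HD-het cells. In HD-homo cells, where only replicate 2 had counts, it was 4.92-fold lower (95% counting interval 1.35 to 26.9) than in control cells (adjusted p = 0.0283) and 248-fold lower (95% counting interval 84.4 to 1204) than in HD-het cells (adjusted p = 1.15e-08). The Sfrp4 call in HD-homo cells was lost when any of control replicates 1 and 3, and HD-homo replicates 1 and 3 was left out (adjusted p from 0.0560 to 0.0765), and its adjusted p ran from 0.00238 to 0.0765 over the 18 alternatives. Without HD-homo replicate 2 the fitted log2 fold change of Sfrp4 went from -2.16 to -5.21 against control cells and from -7.78 to -10.82 against HD-het cells. Sfrp2 counts came to 2, 1 and 0 (control), 9, 4 and 11 (HD-het) and 19, 18 and 48 (HD-homo). Sfrp2 counts were lowest in control and highest in HD-homo libraries without overlap, with HD-homo replicate 3 above replicates 1 and 2. It was 7.50-fold higher (95% counting interval 2.28 to 38.9) in HD-het (adjusted p = 0.0304) and 24.9-fold higher (95% counting interval 8.25 to 123) in HD-homo cells (adjusted p = 0.00051). The Sfrp2 call in HD-het cells was lost when any of control replicates 2 and 3, and HD-het replicates 1 and 3 was left out (adjusted p from 0.0646 to 0.0881), and its adjusted p ran from 0.00516 to 0.0881 over the 18 alternatives. The fitted log2 fold change of Sfrp2 moved without control replicate 1 from 2.77 to 3.62 in HD-het and from 4.51 to 5.37 in HD-homo cells, and without HD-homo replicate 3 the latter became 3.83. The inhibitors Dkk1, Dkk4, Frzb, Sfrp5 and Wif1 were not tested. Dkk1 had 0 counts in all libraries, Dkk4 at most 16, Wif1 at most 5, Frzb at most 3 and Sfrp5 at most 2.

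**Figure D5:**
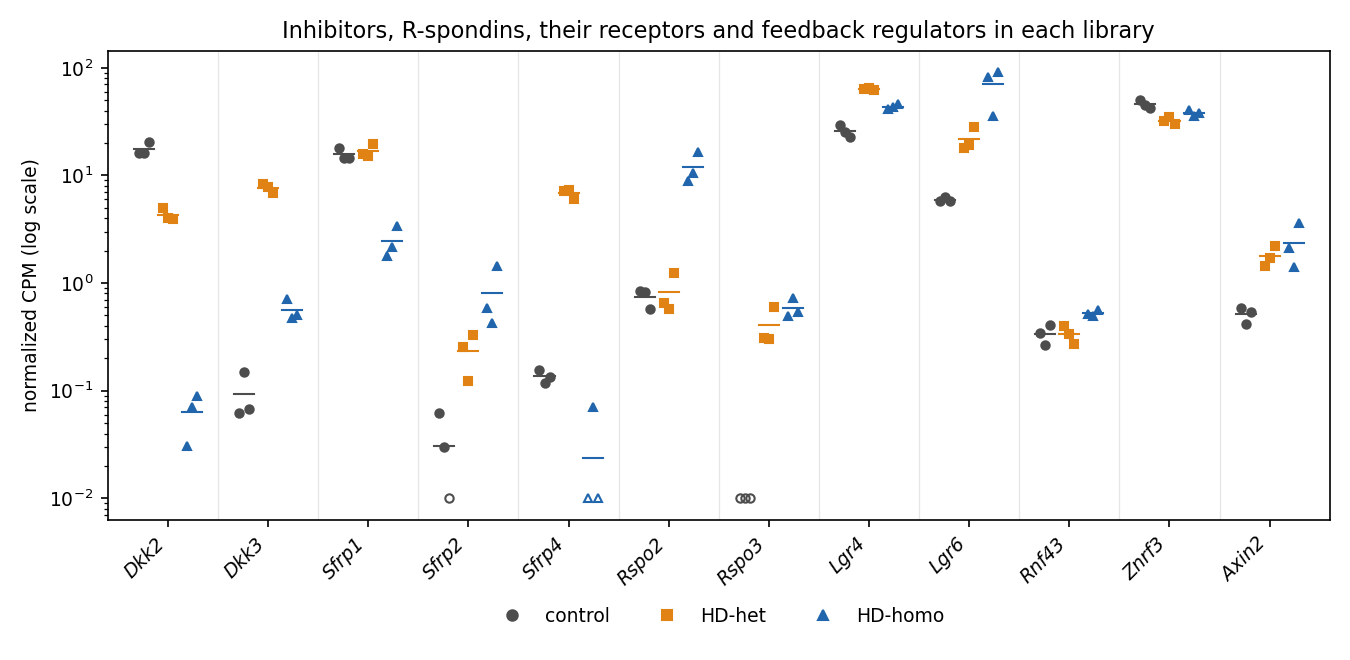
Normalized CPM of the tested secreted inhibitors, R-spondins, R-spondin receptors, ubiquitin ligases and Axin2 in each library on a log axis; short lines are means, and open symbols, drawn at 0.01 because the axis has no 0, are libraries with 0 counts. Dkk2 drops from 17.5 in control to 0.0637 in HD-homo cells, and Lgr6 and Rspo2 are highest there.

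Axin2, a scaffold of the destruction complex and a widely used target gene of β-catenin, rose in both HD lines. Control replicates held 0.591, 0.416 and 0.541 normalized CPM of Axin2, HD-het replicates 1.44, 1.71 and 2.22 and HD-homo replicates 2.12, 1.42 and 3.58. All control libraries were below all HD libraries, and the HD lines overlapped. Axin2 was 3.46-fold higher (log2 fold change 1.79, SE 0.374, adjusted p = 0.00138) in HD-het and 4.59-fold higher (log2 fold change 2.18, SE 0.364, adjusted p = 0.000346) in HD-homo cells by edgeR's quasi-likelihood test (Benjamini-Hochberg adjusted). Between the HD lines the adjusted p was 0.261. For Axin2 between the HD lines the threshold was passed when HD-homo replicate 2 was left out (adjusted p = 0.0341), and its adjusted p ran from 0.0341 to 0.908 over the 19 alternatives. Other target genes of β-catenin moved in both directions, and in HD-homo cells more of them were lower than higher. Of 10 tested among 12 listed, 3 were higher, 5 lower and 2 did not pass in HD-het against control cells, and 2 were higher, 7 lower and 1 did not pass in HD-homo cells. Their median log2 fold change was -0.40 and -0.67, beside 0.03 and 0.01 for all tested genes. Of all tested genes 33.8% were higher and 31.4% lower in HD-het cells, and 29.6% and 28.9% in HD-homo cells, against control. The target counts were not tested against these shares. Lef1, also a TCF/LEF factor, averaged 9.13 ± 2.09 normalized CPM in control, 21.5 ± 2.45 in HD-het and 5.62 ± 1.33 in HD-homo cells and was 2.36-fold higher (log2 fold change 1.23, SE 0.181, adjusted p = 0.000112) in HD-het cells. Ccnd1, the cell cycle gene for cyclin D1, averaged 739 ± 81.5 normalized CPM in control, 139 ± 2.92 in HD-het and 264 ± 48.2 in HD-homo cells and was 5.31-fold lower (log2 fold change -2.41, SE 0.125, adjusted p = 4.55e-08) in HD-het cells. Tnfrsf19, a receptor of the TNF receptor family, averaged 1.02 ± 0.252 normalized CPM in control, 0.527 ± 0.161 in HD-het and 7.78 ± 1.86 in HD-homo cells and was 7.62-fold higher (log2 fold change 2.92, SE 0.24, adjusted p = 1.2e-06) in HD-homo cells. Bambi, a decoy receptor for TGF-β ligands, averaged 9.72 ± 0.260 normalized CPM in control, 11.1 ± 1.52 in HD-het and 0.224 ± 0.0305 in HD-homo cells and was 43.3-fold lower (log2 fold change -5.43, SE 0.183, adjusted p = 7.63e-10) in HD-homo cells. The count of higher targets in HD-het cells was 5 without HD-het replicate 2.

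Genes for making Wnt proteins split in HD-homo cells. Both tested genes of ligand secretion were higher in HD-het than in control cells, and in HD-homo cells 1 was higher and 1 lower. Wls, which carries Wnts to the cell surface, averaged 204 ± 3.38 normalized CPM in control, 315 ± 1.95 in HD-het and 259 ± 17.4 in HD-homo cells and was 1.54-fold higher (log2 fold change 0.63, SE 0.0571, adjusted p = 3.02e-06) in HD-het cells and 1.27-fold higher (log2 fold change 0.35, SE 0.0570, adjusted p = 0.000323) in HD-homo cells by the same test. Porcn, which attaches the lipid to Wnts, averaged 10.1 ± 1.44 normalized CPM in control, 14.7 ± 2.36 in HD-het and 2.00 ± 0.232 in HD-homo cells and was 5.06-fold lower (log2 fold change -2.34, SE 0.164, adjusted p = 3.36e-07) in HD-homo cells. Of 8 tested among 14 other extracellular regulators, 5 were higher, 2 lower and 1 did not pass in HD-het and 3 were higher, 4 lower and 1 did not pass in HD-homo against control cells. Notum, an enzyme that removes the lipid from Wnts, averaged 10.9 ± 0.526 normalized CPM in control, 2.66 ± 0.604 in HD-het and 40.9 ± 5.72 in HD-homo cells; it was 4.10-fold lower (log2 fold change -2.03, SE 0.157, adjusted p = 8.68e-07) in HD-het and 3.75-fold higher (log2 fold change 1.91, SE 0.132, adjusted p = 3.01e-07) in HD-homo cells. Adgra2, the co-receptor for Wnt7 ligands, averaged 81.9 ± 3.11 normalized CPM in control, 199 ± 4.54 in HD-het and 19.4 ± 3.87 in HD-homo cells and was 2.43-fold higher (log2 fold change 1.28, SE 0.106, adjusted p = 1.47e-06) in HD-het cells. Apcdd1, a membrane inhibitor of Wnt signaling, averaged 60.9 ± 0.689 normalized CPM in control, 26.4 ± 3.02 in HD-het and 11.5 ± 2.48 in HD-homo cells and was 5.30-fold lower (log2 fold change -2.40, SE 0.133, adjusted p = 4.6e-08) in HD-homo cells. The median log2 fold change of the list was 0.52 and -1.05, with 0.03 and 0.01 over all tested genes. Its counts stand beside 33.8% higher and 31.4% lower of all tested genes in HD-het, and 29.6% and 28.9% in HD-homo cells.

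Genes of the destruction complex differed less in the size of their changes. Of 18 tested genes of the destruction complex and its transducers, 7 were higher, 4 lower and 7 did not pass in HD-het against control cells, and 3 were higher, 7 lower and 8 did not pass in HD-homo cells. Over all tested genes 33.8% were higher and 31.4% lower in HD-het cells, and 29.6% and 28.9% in HD-homo cells, each against control. The counts of the pathway lists were not tested against these shares. For the destruction complex and its transducers the median size of log2 fold change, 0.27 and 0.15, was under that of all genes, 0.40 and 0.32. The largest increase was in Apc2, a relative of Apc, which averaged 1.68 ± 0.298 normalized CPM in control, 10.3 ± 1.79 in HD-het and 4.22 ± 0.0740 in HD-homo cells and was 6.14-fold higher (log2 fold change 2.62, SE 0.170, adjusted p = 2.47e-07) in HD-het and 2.52-fold higher (log2 fold change 1.33, SE 0.177, adjusted p = 6.05e-05) in HD-homo cells by the same quasi-likelihood test. The largest decreases were in the kinases Csnk1e, 1.53-fold lower (log2 fold change -0.62, SE 0.0643, adjusted p = 8.49e-06) in HD-het cells, and Gsk3a, 1.47-fold lower (log2 fold change -0.55, SE 0.0643, adjusted p = 2.21e-05) in HD-homo cells. Of 13 TCF/LEF factors and nuclear cofactors, 5 were higher, 4 lower and 4 did not pass in HD-het and 3 were higher, 8 lower and 2 did not pass in HD-homo against control cells, with median log2 fold changes of 0.07 and -0.21. Tcf7l2, a TCF factor, was 1.75-fold lower (log2 fold change -0.81, SE 0.0727, adjusted p = 2.85e-06) in HD-het cells. Pygo1, a coactivator, was 3.62-fold higher (log2 fold change 1.85, SE 0.222, adjusted p = 2.93e-05) and Ctnnbip1, which keeps β-catenin from TCF, 2.39-fold lower (log2 fold change -1.26, SE 0.0690, adjusted p = 4.23e-08) in HD-homo cells. Of 12 tested genes of planar cell polarity and other receptors, 5 were higher, 4 lower and 3 did not pass in HD-het and 4 were higher, 5 lower and 3 did not pass in HD-homo cells, with medians of 0.15 and -0.10. Without control replicate 3 the count of higher genes in HD-homo cells was 2. In this list Daam2, a formin bound by Dishevelled, was 10.3-fold higher (log2 fold change 3.33, SE 0.299, adjusted p = 2.61e-06) in HD-het cells, and Prickle1, a core polarity protein, was 5.67-fold higher (log2 fold change 2.48, SE 0.236, adjusted p = 4.24e-06) in HD-homo cells. Celsr2, a polarity cadherin, averaged 18.8 ± 1.55 normalized CPM in control, 3.17 ± 0.864 in HD-het and 0.869 ± 0.172 in HD-homo cells and was 5.92-fold lower (log2 fold change -2.56, SE 0.174, adjusted p = 3.47e-07) in HD-het and 21.6-fold lower (log2 fold change -4.41, SE 0.204, adjusted p = 1.06e-08) in HD-homo cells.

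Set side by side, 21 of the 39 tested members passed the test in all 3 comparisons, 15 in 2, Rnf43 and Wnt9a in 1, and Fzd9 in none; over all tested genes 29.3% passed in 3, 49.1% in 2, 9.19% in 1 and 12.4% in none. The highest mean was in HD-homo cells for 18 members, in HD-het cells for 12 and in control cells for 9. In 11 members, 7 of them ligands, every HD-homo library was above all others and both comparisons passed: Wnt1, Wnt2, Wnt6, Wnt10a, Wnt10b, Wnt11, Wnt16, Rspo2, Lgr6, Fzd7 and Sfrp2. HD-het libraries stood above all others in 8, which were Wnt5a, Wnt5b, Fzd1, Fzd4, Fzd8, Lgr4, Dkk3 and Sfrp4. Control libraries did so in 8 others: Wnt7a, Wnt7b, Fzd2, Fzd3, Fzd5, Fzd6, Dkk2 and Znrf3. Over all tested genes 17.5% had the HD-homo libraries on top in this way, 22% the HD-het and 11.4% the control libraries. Between the HD lines the largest differences past the test were Wnt10a, 748-fold higher (log2 fold change 9.50, SE 0.196, adjusted p = 1.57e-11) in HD-homo cells, and Wnt6, 295.5-fold higher (95% counting interval 81.5 to 2445). The largest decreases there were Sfrp4, 248-fold lower (95% counting interval 84.4 to 1204), and Dkk2, 67.3-fold lower (95% counting interval 32.4 to 168). Wnt4 was 18.9-fold, Dkk3 13.7-fold, Sfrp1 6.86-fold and Fzd4 6.25-fold lower on the HD-homo side.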

How the data were processed

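The authors deposited raw counts per gene by symbol for 9 RNA-seq libraries, and the submitters' processing notes name cutadapt, Bowtie 1.1.2 and RSEM 1.3.0 with GRCm38.p5. The strand setting of the counting is not given, so reads from overlapping antisense genes cannot be told apart; exons of 8 tested members overlap a gene on the opposite strand (GENCODE M21) and 0 on the same strand. At most 3.85% of the 50-base words of a tested member (Wnt4) occur in another gene.

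The analysis here ran edgeR 4.0.16 under R 4.3.3. filterByExpr (minimum count 10, the 3 lines as groups) kept 13508 of 36410 genes. A quasi-likelihood model with TMM normalization and 1 mean per line was fitted to 9 libraries. The lines were compared in pairs by two-sided quasi-likelihood tests, with Benjamini-Hochberg adjustment over the 13508 genes, and "passed" means an adjusted p under 0.05. Fold changes are ratios of mean normalized CPM, with 2 exceptions. With at most 3 counts in each library of a line they are ratios of summed counts over summed normalized library sizes. These carry a 95% Clopper-Pearson counting interval. With 0 counts throughout they are lower bounds against 3 counts per library. The design had a lower bound for both cases, and the interval was taken up later. Levels of different genes are compared as CPM per kilobase of merged exons. On simulated counts with 200 changed genes the code called 200 of them and 9 unchanged genes. Changes were placed only in well-counted genes, and the simulated dispersion was the same for every gene. Calls on members with few counts or a wider spread were therefore not covered.

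Values in every library are given for the 33 tested members that had a mean of at least 1 CPM in 1 line and passed in at least 1 comparison. From the lists of ligand secretion, other extracellular regulators, destruction complex and transducers, TCF/LEF factors and cofactors, β-catenin targets, and planar cell polarity and other receptors, the largest increase and decrease against control were named among genes that passed with a mean of at least 1 CPM in 1 line. Some genes stand in more than 1 list. Cell type marker lists were striatal neuron, neuron, neural progenitor, fibroblast and mesenchyme, smooth muscle and pericyte, endothelium, astrocyte, oligodendrocyte, microglia and nephric epithelium; some marker results, among them the nephric sum, are not reported here. The members and lists were chosen with earlier results of these data known. Alternatives were DESeq2 1.42.0 and its size factors, library totals, other filters, thresholds and a prior count of 2, fits of the 2 lines alone, a replicate block, and leaving out each library.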

Additional observations from a re-analysis of the deposited data

How the results depend on the processing

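The counts of members higher or lower in each comparison stayed within 1.5 times of those given under 18 of the 19 alternatives. Where calls also had to reach 1 on the log2 scale, members under the control level in HD-het cells numbered 6 in place of 11, and in HD-homo cells 7 in place of 13. Leaving out each library in turn gave 18 to 20 higher and 9 to 12 lower in HD-het against control, 19 to 20 and 11 to 13 in HD-homo against control, and 15 to 18 and 13 to 15 in HD-homo against HD-het. No direction turned under the 10 alternatives that keep all libraries. Leaving out a library turned the sign of 10 results, none of which passed the test; the log2 fold changes then ran as follows. In HD-het against control cells, Rnf43 ran from -0.16 to 0.13, Rspo2 ran from -0.29 to 0.31, Sfrp1 ran from -0.0211 to 0.21, Wnt16 ran from -0.64 to 1.19 and Wnt4 ran from -0.00321 to 0.52. In HD-homo against control cells, Fzd9 ran from -0.0499 to 0.20, Ror1 ran from -0.40 to 0.0108 and Wnt9a ran from -0.0588 to 0.40. In HD-homo against HD-het cells, Axin2 ran from -0.0339 to 0.68 and Ror2 ran from -0.0679 to 0.14. The cause was not tested. With a prior count of 2, calls did not change, and the folds fitted for Dkk2, Dkk3, Rspo3, Sfrp2, Sfrp4, Wnt6, Wnt10b and Wnt16 shrank by over 1.5 times. Deviations of same-numbered libraries were correlated with r from 0.0304 to 0.29, not over 0.1 in each pair, so the numbers were not taken to pair libraries. With the replicate number as a block, 31 members passed in HD-het against control, 31 of them among the 31 given; 32 in HD-homo against control, 32 of them among 33; and 31 between the HD lines, 30 of them among 31. Levels per length with the longest RefSeq transcript were not run, since no such lengths were at hand; with the longest GENCODE transcript, chosen after seeing the data, 82 of 117 levels stayed within 1 SD. Depth limits members with counts near 3 per library. Variance between replicates was 2.23 to 40.3 times that of counting alone.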
